A study of Mus musculus with 2 samples.

Results

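The matrix metalloproteinases (MMPs) and their tissue inhibitors (TIMPs) were followed through a prostate tumor and its infiltrate in 10 genes, of the 32285 genes counted in the series. Of the names, 7 are proteases (Mmp2, Mmp3, Mmp10, Mmp12, Mmp13, Mmp14 and Mmp19) and 3 are inhibitors (Timp1, Timp2 and Timp3). They were taken by name rather than by a threshold on a value, and all 10 were present among the deposited gene names.

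The tumors grew from RM-1, a mouse prostate cancer line, injected into the prostate of C57BL/6 mice. The genotype given for the samples is wild type. One tumor was from a mouse given vehicle (the control library) and 1 from a mouse given enzalutamide, an inhibitor of androgen receptor signalling (the ENZ library), and each was profiled by droplet single-cell RNA sequencing. The sort favoured leukocytes, which a kit had enriched and an antibody to CD45 marked. The comparison asks what the tumor and its immune cells express under enzalutamide, and with 1 library per condition the mouse, the sort and the library cannot be told apart from the treatment. The study's animal methods describe intravenous dosing of enzalutamide but do not tie a dose or duration to the mice used for single cells, and the age of these mice is not given in the sources used here.

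MMPs are zinc-dependent proteases that are made as inactive precursors and cut collagens, elastin, fibronectin and other matrix proteins once their prodomain is removed. TIMPs bind the active site of MMPs, and Timp2 also takes part in the activation of pro-Mmp2 at the cell surface by the membrane-bound Mmp14. In tumors, fibroblasts and macrophages are known sources of these enzymes, and macrophage elastase, Mmp12, is named for the cell that makes it.

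Of the proteases, 4 lie close together. In GRCm38 coordinates (GENCODE M21), Mmp13 (chr9:7272514-7283331), Mmp12 (chr9:7344381-7369499), Mmp3 (chr9:7445822-7455975) and Mmp10 (chr9:7502352-7510240) occupy a stretch of 237727 bases on the plus strand of chromosome 9, which holds 5 coding MMP genes in all, the other being Mmp1b. The other members are scattered. Mmp2 is at chr8:92827291-92853420, Mmp14 at chr14:54431612-54445364, Mmp19 at chr10:128790910-128800824, Timp1 at chrX:20870166-20874735 and Timp3 at chr10:86300372-86349506, all on the plus strand, and Timp2 is at chr11:118301069-118355740 on the minus strand. Timp1 overlaps Syn1, Timp3 overlaps Syn3, Mmp12 overlaps Mmp1b, and Mmp19 overlaps Tmem198b and Gm47093, all on the opposite strand, whereas Timp2 overlaps Cep295nl on its own strand, so reads of that pair could be split between them.

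The promoters of the chromosome 9 genes are shown because these genes are neighbours and yet were found in different cells below. RefSeq (GRCm38.p6) promoter windows were held for 8 of the 10 members, and the stretches printed are the 100 bases before the annotated start, 5′ to 3′, with TGAGTCA or its reverse complement TGACTCA (the site of the AP-1 factors Fos and Jun) and TATAAA in capitals.
Mmp3, chr9:7445722-7445821, plus strand: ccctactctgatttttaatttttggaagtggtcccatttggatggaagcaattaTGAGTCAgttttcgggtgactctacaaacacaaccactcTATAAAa
Mmp10, chr9:7502242-7502341, plus strand: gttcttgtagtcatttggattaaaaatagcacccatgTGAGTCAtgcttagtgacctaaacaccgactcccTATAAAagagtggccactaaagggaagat
Mmp13, chr9:7272414-7272513, plus strand: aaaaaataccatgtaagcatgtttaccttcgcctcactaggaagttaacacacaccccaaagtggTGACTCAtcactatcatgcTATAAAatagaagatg
Mmp12, second annotated start, chr9:7347274-7347373, plus strand: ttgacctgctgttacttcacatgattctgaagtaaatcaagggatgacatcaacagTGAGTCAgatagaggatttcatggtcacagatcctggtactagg
The AP-1 letters began 46, 63, 35 and 44 bases before the start in Mmp3, Mmp10, Mmp13 and Mmp12. On either strand they were found in the 250 bases before the start in 4.46% of 32851 RefSeq windows, and TATAAA on the gene's strand within 50 bases of the start in 2.63%. Both were present together in 0.234% of windows, Mmp3, Mmp10 and Mmp13 among them. The windows of Mmp14, Timp1, Timp2 and Timp3, and that of the first Mmp12 start, held neither. Such a match is a description of letters and not of a bound site.

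Barcodes with at least 1000 UMIs (unique molecular identifiers, each a counted transcript) and at most 20% mitochondrial UMIs were kept, which left 12253 barcodes with 154446287 UMIs in the control library and 10271 with 146593438 UMIs in the ENZ library. Only 39 barcode sequences occurred in both. Gates on a few marker genes then gave 2410 and 3197 cancer cells in the control and ENZ libraries (Krt8 and Krt18), 60 and 69 fibroblasts (Dcn), 1449 and 774 macrophages (C1qa, C1qb and C1qc), 264 and 344 monocytes (Ly6c2 with Lyz2) and 171 and 72 dendritic cells (DC, by Flt3, Xcr1, Clec9a, Cd209a, Ccl22 and Zbtb46 with MHC class II genes). No gate was passed by 46.3% of control and 43.7% of ENZ barcodes, and 315 and 188 barcodes that passed several were left out. Median UMIs per barcode were 25398 and 25167 in cancer cells, 17034 and 18200 in fibroblasts, 7976 and 6921 in macrophages, 4762 and 5184 in monocytes, and 8138 and 8704 in DC.

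Markers not used in the gates were present in the fibroblast, macrophage, monocyte and DC gates, where all 6, 7, 6 and 6 listed genes reached 10 CPM (UMIs of a gene in every 1000000 UMIs summed over a gate) in both libraries. The cancer gate was less complete. Krt19 stood at 191 and 215 CPM there, but Epcam (4.04 and 3.39 CPM) and Cdh1 (0.699 and 0.633 CPM) were near 0 and Cldn3 had no UMI in either library, so this gate is one of keratin-positive cells without the usual epithelial adhesion genes.

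Paired values are in the order control, ENZ throughout, and a ratio is the ENZ level divided by the control level. Brackets hold 95% intervals (exact Poisson for a level, exact conditional binomial for a ratio, Clopper-Pearson for a share of barcodes). They cover counting error only. There are no replicates, hence no test.

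The members differed in the cell type with the highest level, and this cell type was the same in both libraries. Mmp2, Mmp3, Mmp14, Timp1, Timp2 and Timp3 were highest in fibroblasts, Mmp12 and Mmp13 in macrophages, Mmp10 in cancer cells and Mmp19 in monocytes, among the 5 cell types. For Mmp19 the monocyte level was close to those of fibroblasts and macrophages. Of the 50 pairs of a member and a cell type, 32 had a mean CPM of at least 10 over the libraries, and 5 of these were at least 1.5-fold higher and 6 at least 1.5-fold lower in the ENZ library, while 21 were within 1.5-fold.

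**Figure D1:**
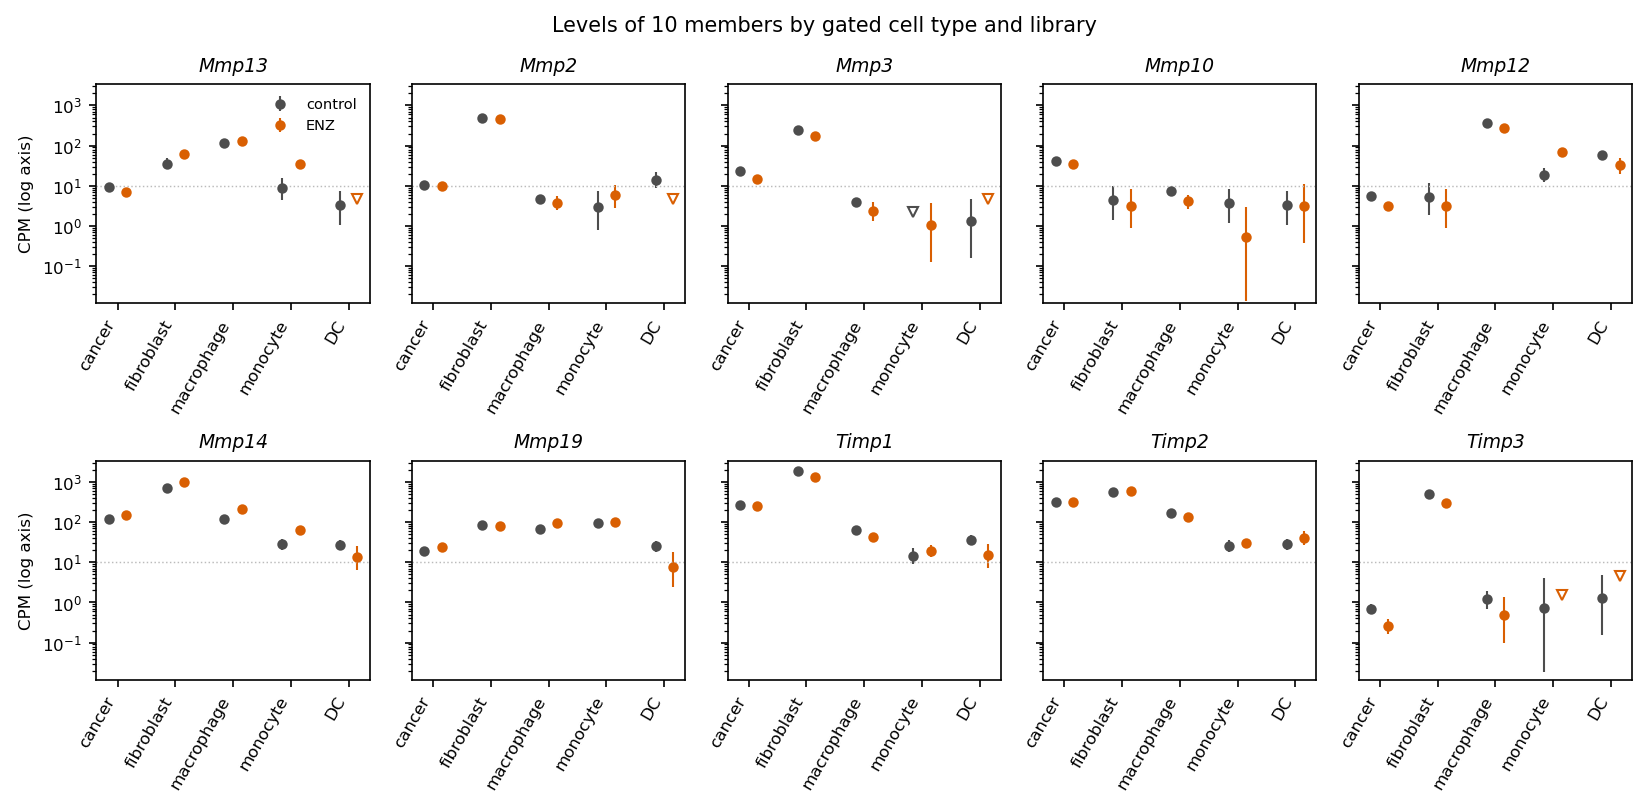
Level in CPM (log axis) of each member in 5 gated cell types in the control (grey) and ENZ (orange) libraries; bars are 95% counting intervals, open triangles mark the level that 3 counts would give where no UMI was found, and the dotted line is 10 CPM. Fibroblasts head the panels of Mmp2, Mmp3, Mmp14, Timp1, Timp2 and Timp3, and macrophages those of Mmp12 and Mmp13.

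These counts were read against all genes of the same gate that reached the same mean level. In cancer cells 7 members were counted, of which 0 were higher, beside 0.435% of 8508 genes, and 1 was lower, beside 0.752%. For fibroblasts it was 1 higher and 1 lower of 8 members, where 9.41% and 11.4% of 8699 genes were. Macrophages had 1 of 6 higher and 0 lower, against backgrounds of 7.12% and 3.78% of 8281 genes. In monocytes 3 of 6 members were higher and 0 lower, and 12.5% and 7.20% of 7348 genes were. Among DC, 0 of 5 were higher and 4 lower, with backgrounds of 17.8% and 9.88% of 7714 genes. Mmp13 in monocytes was under 10 CPM in the control library (8.79 CPM) and Mmp19 in DC in the ENZ library (7.64 CPM). Each of these pairs was counted through its level in the other library. The median log2 ratio of the counted members was -0.07, -0.11, -0.07, 0.81 and -0.99 in these 5 cell types, in that order, and that of all genes was 0.061, -0.037, 0.125, 0.051 and 0.094. The shift of 0.125 means that a macrophage ratio is best read relative to it.

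**Figure D2:**
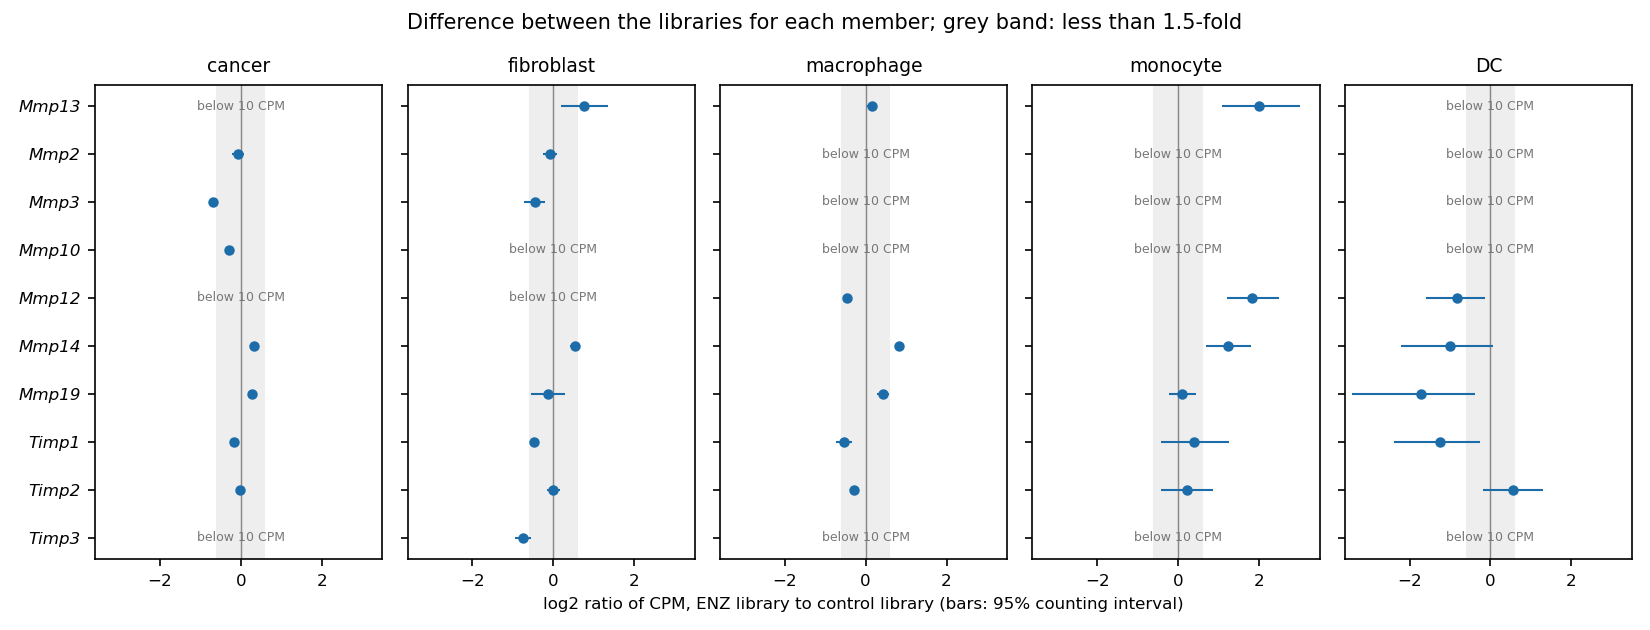
Log2 ratio of CPM (ENZ to control) for each member in each cell type, with 95% counting intervals; the grey band is less than 1.5-fold and members with a mean under 10 CPM are marked. Monocytes hold 3 members above the band and DC 4 below it, while 6 of 7 members in cancer cells lie inside it.

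Mmp13, a collagenase that cuts fibrillar collagen, was a macrophage gene in these tumors. It stood at 116 CPM [110 to 121] in control macrophages and 128 CPM [120 to 138] in ENZ macrophages, a ratio of 1.11 [1.02 to 1.21]. Fibroblasts came next, with 35.7 and 60.4 CPM and a ratio of 1.69 [1.14 to 2.54]. However, this fibroblast value rested on few cells, because 29 of the 41 control UMIs and 31 of the 76 ENZ UMIs each came from 1 barcode. Without the 3% of fibroblasts with most UMIs the log2 ratio went from 0.76 to -0.05, so the direction was not stable. In monocytes Mmp13 was at 8.79 and 35.0 CPM, 3.99-fold higher in the ENZ library [2.14 to 8.10] on 12 and 67 UMIs, and 21 of the 67 lay in 1 barcode. This ratio was 1.68 as a mean of the CPM of each cell and 9.65 with gate limits doubled. The control monocyte interval [4.54 to 15.4] overlaps those of control T cells (4.88 CPM [2.44 to 8.73]) and NK cells (4.21 CPM [2.24 to 7.19]). It also overlaps that of control neutrophils (5.35 CPM [2.77 to 9.35]), so the monocyte ratio is taken over a level at background. Cancer cells carried 9.21 and 7.14 CPM, and DC 3.25 CPM in the control library and no UMI in the ENZ library.

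Mmp2, gelatinase A, had its highest level in fibroblasts. It measured 482 [443 to 524] and 453 CPM [416 to 491], a ratio of 0.939 [0.834 to 1.06] whose interval includes 1. An Mmp2 UMI was found in 54 of 60 control and 59 of 69 ENZ fibroblasts. Cancer cells stood at 10.4 and 9.90 CPM, macrophages at 4.70 and 3.82 CPM and monocytes at 2.93 and 5.75 CPM, and these neighbours overlap between libraries. The 22 Mmp2 UMIs of control DC all lay in 1 barcode of 28895 UMIs, which also held 954 UMIs of fibroblast markers and 113 of Dcn. No Mmp2 UMI was found in the 72 ENZ DC.

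The stromelysins Mmp3 and Mmp10 are close relatives with broad substrates that can also activate other pro-MMPs. They lie 46376 bases apart, and the cell type with the highest level differed. Mmp3 was at 239 CPM [212 to 269] in control and 175 CPM [152 to 199] in ENZ fibroblasts, a ratio of 0.730 [0.609 to 0.875], and at 23.6 and 14.8 CPM in cancer cells. The cancer cell ratio of 0.625 [0.582 to 0.672] made Mmp3 the member past the limit in that gate, on 1689 UMIs in 2410 cells and 1352 UMIs in 3197 cells. After each cell was thinned to 1000 UMIs, 2.41% of control cancer cells [1.83 to 3.10] and 1.19% of ENZ cancer cells [0.842 to 1.63] kept an Mmp3 UMI. Macrophages, monocytes and DC were all under 4 CPM. Cancer cells, with 46.3% and 62.5% of the UMIs of all genes, held 53.5% and 66.0% of all Mmp3 UMIs, and fibroblasts 8.71% and 10.7%. In fibroblasts, Mmp3 was uneven from cell to cell, with 50% of its UMIs in 3 of 60 control and 5 of 69 ENZ cells.

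Mmp10 was highest in cancer cells. It stood at 41.2 CPM [39.7 to 42.7] in control and 33.9 CPM [32.7 to 35.1] in ENZ cancer cells, a ratio of 0.822 on 2948 and 3104 UMIs, and at 4.35 and 3.18 CPM in fibroblasts. Macrophages had 7.29 and 4.14 CPM. Within the cancer gate Mmp10 was sparse, since 31.8% and 33.4% of cells had a UMI and 50% of its UMIs lay in 103 control cells (4.27%) and 158 ENZ cells (4.94%). After thinning, Mmp10 was detected in 7 of 58 control cancer cells with an Mmp3 UMI (12.1% [4.99 to 23.3]) and in 3.74% [3.01 to 4.59] of 2352 without. In the ENZ library it was 2 of 38 (5.26% [0.644 to 17.7]) and 3.48% [2.87 to 4.18] of 3159, and these intervals overlap.

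Mmp12, macrophage elastase, belonged to macrophages. Its level was 375 CPM [365 to 385] in control and 274 CPM [261 to 287] in ENZ macrophages. That is a ratio of 0.731 [0.692 to 0.772], a log2 ratio of -0.45 where the median of all genes in this gate was 0.125. DC came next in the control library (57.2 CPM [45.8 to 70.4], with monocytes at 19.0 CPM) and monocytes in the ENZ library (67.5 CPM, with DC at 32.1 CPM [19.9 to 49.1]), and in neither library did the intervals of these gates overlap. Cancer cells (5.72 and 3.20 CPM) and fibroblasts (5.22 and 3.18 CPM) were lowest. After thinning, an Mmp12 UMI was left in 0.539% [0.288 to 0.921] of control and 0.375% [0.194 to 0.655] of ENZ cancer cells. T cells, a type that should lack the gene, gave 3 of 377 (0.796% [0.164 to 2.31]) and 4 of 503 (0.795% [0.217 to 2.02]). These intervals overlap, and the cancer cell share is read as background.

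The share of macrophages with an Mmp12 UMI differed in the same direction as the level. Once each barcode was thinned to 1000 UMIs, 302 of 1449 control macrophages (20.8% [18.8 to 23.0]) and 125 of 774 ENZ macrophages (16.1% [13.6 to 18.9]) carried one, against the T cell shares above (median UMIs 4249 and 4488 before thinning). Thinned B cells gave 0 of 28 and 0 of 17, where 3 cells of the total would be 10.7% and 17.6%. The upper bounds of the B cell intervals were 12.3% and 19.5%. The thinned intervals of the libraries touch. Without thinning the shares were 47.8% and 33.9%, at median depths of 7976 and 6921 UMIs. Judged from barcodes of 10 to 100 UMIs, free RNA would give 6.68 of the 5657 control and 3.12 of the 1723 ENZ Mmp12 UMIs. The same estimate gives 1.74 of the 62 UMIs in control T cells and 11.1 of the 409 in control cancer cells, so it falls short of the background in those gates.

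Mmp12 was concentrated in a minority of macrophages. Of control macrophages 756 had no Mmp12 UMI and 464 (32.0%) had at least 3, and in the ENZ library these numbers were 512 and 156 (20.2%). The cells with at least 3 held 94.4% and 91.3% of all Mmp12 UMIs of the gate. In the control library 99 cells (6.83%) accounted for 50% of the Mmp12 UMIs, and in the ENZ library 34 cells (4.39%). At the top the intervals of the libraries overlapped, with 5.66% of control [4.53 to 6.98] and 4.52% of ENZ macrophages [3.17 to 6.23] at 20 or more Mmp12 UMIs per 10000. When the gate was divided by C1q level, Mmp12 was highest in the middle (20 to 60 C1q UMIs per 10000), at 483 [467 to 500] and 324 CPM [304 to 345]. It was lower both below it (277 and 220 CPM) and above it (303 and 236 CPM), and in every bin the ENZ value was under the control value.

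**Figure D3:**
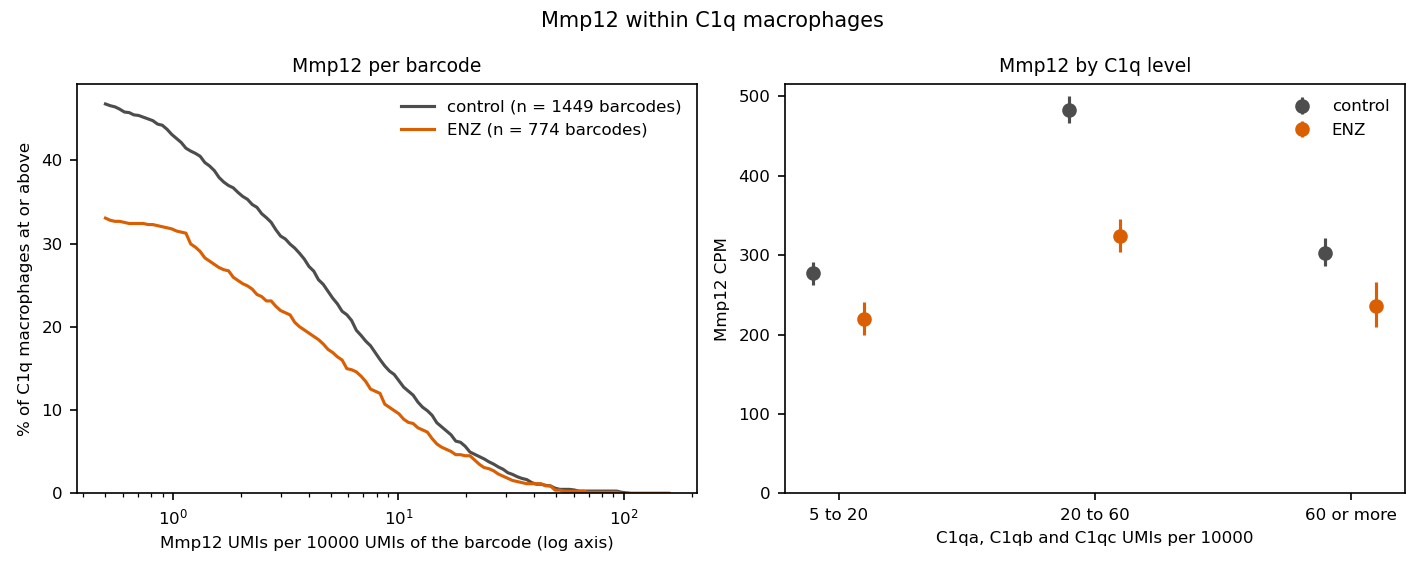
Left, percentage of C1q macrophages at or above a given number of Mmp12 UMIs per 10000 (log axis) in the control (1449 barcodes) and ENZ (774 barcodes) libraries; right, Mmp12 CPM with 95% counting intervals in 3 bins of C1q level. The curves stand at 23.9% and 17.2% at 5 UMIs per 10000 and come together by 20 per 10000 (5.66% and 4.52%), and the middle bin is highest in both libraries (483 and 324 CPM).

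The macrophage gates themselves differed in other genes. Mrc1, a mannose receptor used as a marker of M2-like macrophages, was at 503 and 1040 CPM, Chil3 at 62.7 and 440 CPM, and Apoe at 5718 and 3991 CPM. The 7 macrophage markers summed to 7239 and 6242 CPM, with Apoe the most abundant. S100a9, a neutrophil gene, was at 356 and 110 CPM in the same gates, and mast cell markers (Cpa3, Tpsb2 and Mcpt4) summed to 45.9 CPM (3 of 3 at 10 CPM or more, Mcpt4 highest) and 0.636 CPM (0 of 3). The part of mast cell RNA in the macrophage values was not tested. Mmp12 was lower in the ENZ library among macrophages with an Mrc1 UMI (log2 ratio -0.45) and among those without (-0.50), and it was -0.69 when barcodes with 3 or more UMIs of the neutrophil, T and NK gate genes were left out. After thinning, Mmp12 was detected in 19.3% of control macrophages with Mrc1 and 21.6% of those without, and in 15.3% and 17.0% in the ENZ library, so intervals overlapped within each library.

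To describe the cells that carry it, macrophages with at least 3 Mmp12 UMIs were set beside those with 0. Since the cells were split on Mmp12, these are descriptions, and median UMIs differed too (9498 against 6690 in the control and 8732 against 6516 in the ENZ library). Of the other members, Mmp13 went with Mmp12, being 2.71-fold higher [2.42 to 3.03] in the control and 1.94-fold higher [1.66 to 2.26] in the ENZ library. Mmp19 was 1.31-fold and 1.47-fold higher. Timp3 was 8.65-fold higher [2.03 to 77.5] in the control library, on 16 and 2 UMIs. However, 10 of the 18 Timp3 UMIs of control macrophages lay in 1 barcode with 392 fibroblast marker UMIs. In the ENZ library Timp3 had 0 and 2 UMIs. Mmp14 (0.918 and 1.06) and Timp1 (1.13 and 0.787) had intervals that included 1 in both libraries, and Timp2 was at 0.756 [0.693 to 0.826] and 0.915 [0.772 to 1.08]. The thinned cells gave the same picture for Mmp13, present in 18.2% of control macrophages with Mmp12 and 7.15% of those without, and in 15.2% and 8.63% in the ENZ library.

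Ranked by the lower bound of the ratio, taking the lower of the libraries, 10 genes led the cells with Mmp12. They were Ear2, an eosinophil-associated ribonuclease also made by macrophages (3.52-fold and 6.60-fold), Klrb1b, a lectin-like receptor (3.15 and 11.1), F7, coagulation factor VII (2.99 and 4.40), Slc7a2, a transporter of cationic amino acids (3.39 and 2.72), H2-DMb2, which loads peptides onto MHC class II (2.59 and 3.19), Prelid2 (2.59 and 3.40), Tnfrsf9, the receptor 4-1BB (2.41 and 2.93), AA467197 (2.29 and 2.67), Tnip3 (2.62 and 2.51) and Cd36, a fatty acid scavenger receptor (2.21 and 3.23). Lower in the cells with Mmp12 were Ms4a7 (0.368 and 0.379), Chil3 (0.350 and 0.410), Folr2 (0.442 and 0.457), Apoe (0.585 and 0.601) and Mrc1 (0.792 and 0.767), all macrophage or monocyte markers. Cd163, a haemoglobin scavenger receptor, was 0.471-fold [0.345 to 0.635] in the control and 0.0600-fold [0.0162 to 0.156] in the ENZ library, the last on 4 UMIs. Lpl, lipoprotein lipase of lipid-handling macrophages, was at 1.99 and 2.22, and Trem2, a lipid receptor, at 0.862 and 0.789. Among the other listed genes of lipid-handling macrophages, Cd9 was at 1.40 and 1.42 and Spp1 at 1.13 and 1.14. Gpnmb was also higher, with ratio intervals of [1.15 to 1.95] and [1.15 to 2.25]. Fabp5 was at 1.12 [1.08 to 1.17] and 0.945 [0.875 to 1.02]. M1-like genes were mixed, with Il1b at 1.24 and 1.48, Nos2 at 4.05 and 2.05 and Cd86 at 0.914 and 0.958.

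**Figure D4:**
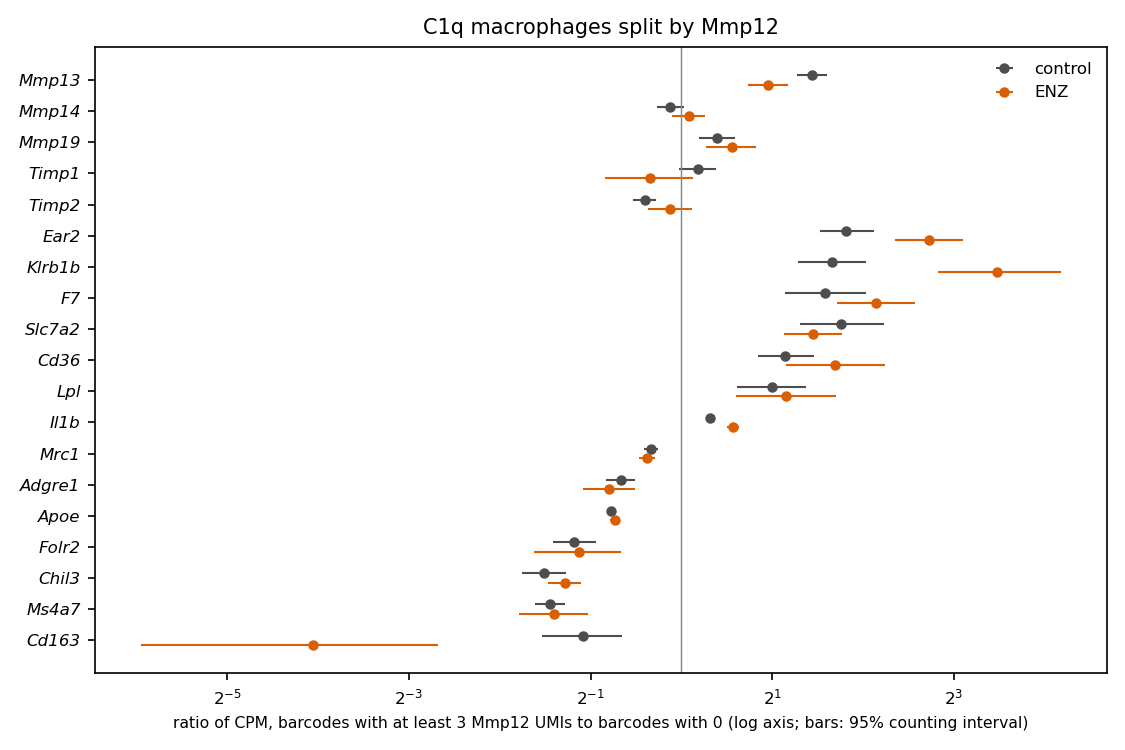
Ratio of CPM (log axis) between C1q macrophages with at least 3 and with 0 Mmp12 UMIs, in the control (464 and 756 barcodes) and ENZ (156 and 512 barcodes) libraries, with 95% counting intervals. Mmp13 lies to the right at 2.71 and 1.94, and Ms4a7, Chil3 and Folr2 to the left, at 0.368, 0.350 and 0.442 in the control library.

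In monocytes Mmp12 went the other way. It was at 19.0 [12.4 to 27.9] and 67.5 CPM [56.3 to 80.2], a ratio of 3.54 [2.31 to 5.63] on 26 and 129 UMIs. The control level was no higher than in control T cells (27.5 CPM [21.1 to 35.3]) or neutrophils (24.5 CPM [18.5 to 31.9]). In these gates 17 of 62 and 25 of 55 UMIs lay in 1 barcode each. The control level was above that of control NK cells (6.80 CPM [4.21 to 10.4]), so these gates differ on whether it is background. T cells, neutrophils and NK cells stood at 9.27, 16.4 and 5.70 CPM in the ENZ library. The share of monocytes with a UMI after thinning was 1.14% [0.235 to 3.28] and 3.78% [2.03 to 6.38], which overlap, and 27 of the ENZ UMIs lay in 1 barcode. With the barcode richest in Mmp12 removed from each library, the monocyte ratio stayed past 1.5-fold, as it did under each of the 12 alternatives run, which gave ratios from 1.98 (gate limits halved) to 6.31 (doubled). Other genes of the gate also differed between the libraries, in both directions. Chil3 was at 1219 and 3509 CPM, Spp1 at 152 and 299 CPM and Cd74, an MHC class II chaperone, at 1711 and 766 CPM. All 7 macrophage markers were found in the gate and summed to 1419 and 1520 CPM (Apoe highest), and C1qb was at 49.1 and 32.4 CPM. The part of these differences in the Mmp12 result was not tested.

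Mmp14, the membrane-anchored protease that activates pro-Mmp2, reached 10 CPM in all 5 cell types and had a higher ENZ level in 4 of them. Fibroblasts had 704 [657 to 755] and 1025 CPM [970 to 1083], a ratio of 1.46 [1.33 to 1.59], just inside the limit. Macrophages had 122 CPM [116 to 127] and 216 CPM [204 to 227], a ratio of 1.77 [1.65 to 1.90] with a log2 ratio of 0.82. Here 52.7% and 59.2% of cells had a UMI, and 11.9% [10.3 to 13.7] and 18.7% [16.0 to 21.7] after thinning. It was higher in all bins of C1q level, at 108, 121 and 140 CPM in the control and 201, 216 and 240 CPM in the ENZ library from the lowest C1q bin to the highest. In cancer cells the values were 119 and 148 CPM, a ratio of 1.25 [1.21 to 1.28], and in monocytes 27.8 and 65.4 CPM, a ratio of 2.35 [1.62 to 3.47]. The control monocyte interval [19.7 to 38.2] overlaps those of control T cells (22.6 CPM [16.8 to 29.8]) and NK cells (33.7 CPM [27.5 to 40.8]). The monocyte ratio is thus taken over a level at background. T and NK cells were at 24.3 and 32.6 CPM in the ENZ library. The intervals of cancer cells [116 to 121] and macrophages overlap in the control library but not in the ENZ library, where cancer cells were at [145 to 150]. DC were the exception, at 27.3 and 13.8 CPM on 42 and 9 UMIs. Of the 42, 20 came from the barcode with 954 fibroblast marker UMIs described above, and without barcodes of 10 or more collagen UMIs the DC log2 ratio was 0.24 in place of -0.99.

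Mmp19, a protease of broad substrate range, was highest in monocytes, fibroblasts and macrophages among the 5 cell types. Monocytes had 94.5 and 101 CPM, fibroblasts 87.0 and 79.4 CPM and macrophages 69.0 and 93.4 CPM in the control and ENZ libraries, and the fibroblast and macrophage intervals overlap. The monocyte interval [78.9 to 112] lay above that of macrophages [64.8 to 73.3] in the control library, and the corresponding ENZ intervals overlap. The macrophage ratio was 1.35 and that in cancer cells, at 19.6 and 23.8 CPM, was 1.22. Within macrophages Mmp19 was lowest at the highest C1q level, with 40.4 and 46.3 CPM, against 83.7 and 91.2 CPM in the middle bin. DC had 25.3 and 7.64 CPM on 39 and 5 UMIs, a ratio of 0.302 [0.0928 to 0.766]. The DC ratio was 0.699 with gate limits halved and 0.942 as a mean of the CPM of each cell, both within 1.5-fold.

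Timp1, a secreted inhibitor of most MMPs, had a lower ENZ level in 4 of the 5 cell types. Of these, macrophages [59.1 to 67.2] and DC were below NK cells [67.6 to 87.5], a gate outside the 5, in the control library. The ENZ interval of NK cells [35.2 to 60.1] overlaps that of macrophages [38.3 to 48.7]. There 33 of the 57 NK cell UMIs lay in 1 barcode, so no order is read in the ENZ library. Fibroblasts led with 1879 [1800 to 1960] and 1356 CPM [1292 to 1421], a ratio of 0.722 [0.677 to 0.769]. However, 321 of the 2160 control UMIs (14.9%) were in 1 cell, and the median fibroblast had 8.54 and 5.84 Timp1 UMIs per 10000. Cancer cells had 273 and 245 CPM (0.895) and macrophages 63.1 and 43.3 CPM (0.686 [0.597 to 0.786]). In DC it was 36.4 and 15.3 CPM, a ratio of 0.420 [0.191 to 0.831] on 56 and 10 UMIs (0.236 without the richest barcode of each library), and in monocytes 14.6 and 19.4 CPM. T cells were at 33.7 and 18.2 CPM (0.539 [0.371 to 0.779]) and NK cells at 77.0 and 46.4 CPM (0.602 [0.443 to 0.807]). The DC and T cell intervals overlap in both libraries. The part of other cells' RNA in the macrophage and DC values was not tested.

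Timp2, the inhibitor that also bridges Mmp14 and pro-Mmp2, was within 1.5-fold between the libraries in all 5 cell types with every barcode kept, and past it in DC without 1 control barcode (1.89). It was at 578 and 580 CPM in fibroblasts, with 0.902 and 1.12 as bounds of the ratio, at 318 and 314 CPM in cancer cells and at 164 and 136 CPM in macrophages, where the ratio was 0.824 [0.761 to 0.891]. Monocytes (25.6 and 29.8 CPM) and DC (27.9 and 41.3 CPM, or 21.8 CPM in control DC without the barcode rich in fibroblast markers) were lowest and overlap. Nearly every cancer cell carried it, with a UMI in 98.3% and 98.0% of cells. Timp2 was also present in neutrophils, at 149 and 143 CPM.

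Timp3, which unlike the other inhibitors binds to the matrix and also blocks sheddases of the ADAM family, was at 1.30 CPM or less in the cell types other than fibroblasts. Its fibroblast level was 497 [458 to 540] and 296 CPM [267 to 328], a ratio of 0.595 [0.521 to 0.680]. One cell held 139 of the 572 control UMIs (24.3%), and without the richest barcode of each library the ratio was 0.680, within 1.5-fold, as it was with gate limits doubled (0.681). In all, 66.7% of control and 58.0% of ENZ fibroblasts had a UMI. After thinning the shares were 26.7% [16.1 to 39.7] and 24.6% [15.1 to 36.5], which overlap. Acta2, a contractile gene, was at 557 and 175 CPM in the same gates, and its part in the Timp3 value was not tested. Cancer cells had 0.685 and 0.262 CPM, macrophages 1.19 and 0.477 CPM and monocytes 0.732 CPM and no UMI. DC had 1.30 CPM in the control and no UMI in the ENZ library. Endothelial cells (Pecam1, Cdh5 and Egfl7) were the other Timp3 source, at 407 CPM in 71 control cells and 466 CPM in 44 ENZ cells, but the gate also held mural cell markers, 3 of 3 of them at 10 CPM or more, summing to 596 and 999 CPM with Rgs5 the most abundant. The mast cell markers summed to 1750 CPM in the control gate, 3 of 3 of them at 10 CPM or more and Mcpt4 the highest, and had no UMI in the ENZ gate, while the 3 endothelial markers outside the gate (Kdr, Flt1 and Emcn) summed to 1601 and 1906 CPM. The part of these cells in the endothelial values was not tested.

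The DC values rested on 171 and 72 cells, and 4 of 5 counted members were lower in the ENZ library. Fibroblast markers were lower in the same gate, with Col3a1 at 307 and 27.5 CPM, Col1a2 at 173 and 7.64 CPM and Col1a1 at 159 and 22.9 CPM, and the 6 markers summed to 665 and 59.6 CPM. Of the 1024 control UMIs of these markers, 954 lay in the barcode that held all Mmp2 UMIs of control DC, and the other 170 control DC were at 46.3 CPM, a ratio of 1.29 [0.846 to 1.93]. Without that barcode, left out after seeing the data, Mmp14 was at 0.944 [0.383 to 2.13] and Timp2 at 1.89 [1.09 to 3.24], while Mmp12 (0.551), Mmp19 (0.312) and Timp1 (0.537 [0.241 to 1.09]) stayed lower by more than 1.5-fold. When the 3 control DC with 10 or more collagen UMIs were left out, Mmp14 was no longer lower. By subset, Mmp12 was at 113 CPM [81.1 to 153] in 44 type 2 control DC (Cd209a) and 171 CPM [90.8 to 292] in 10 ENZ ones, at 95.8 CPM [60.7 to 144] in 36 mature control DC and 66.1 CPM [26.6 to 136] in 15 ENZ ones, and at 21.0 CPM in 78 type 1 control DC (Xcr1 and Clec9a) and 2.27 CPM in 41 ENZ ones. The type 2 and mature intervals overlap, and all 13 Mmp12 UMIs of the ENZ type 2 DC lay in 1 barcode. The type 1 intervals touch ([12.5 to 33.2] and [0.0573 to 12.6]), and the ENZ type 1 value rests on 1 UMI. Mmp12 in DC turned direction when the gate limits were doubled (log2 ratio 0.23) or halved (0.39).

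The members were also summed over all kept barcodes, where a level combines that within each cell type with the share of UMIs each type holds. Mmp12 was at 59.0 and 25.2 CPM, a ratio of 0.428 [0.412 to 0.444], further below 1 than the 0.731 within macrophages. In such a sum, fewer macrophages and less Mmp12 RNA per macrophage cannot be told apart. Macrophages made up 9.77% of control and 4.29% of ENZ UMIs, and they held 62.1% and 46.6% of the Mmp12 UMIs. Mmp13 was at 23.8 and 16.9 CPM over all barcodes (0.711), although it was not lower within macrophages, which held 47.5% and 32.6% of its UMIs. Mmp14 was 1.31-fold higher over all barcodes, with 45.3% and 58.0% of its UMIs in cancer cells. Immune cells were enriched during sorting, and the part of the sort in the shares of cell types was not tested. Barcodes that passed no gate held 24.7% of control and 36.8% of ENZ Mmp12 UMIs, and these are in no cell type value above.

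**Figure D5:**
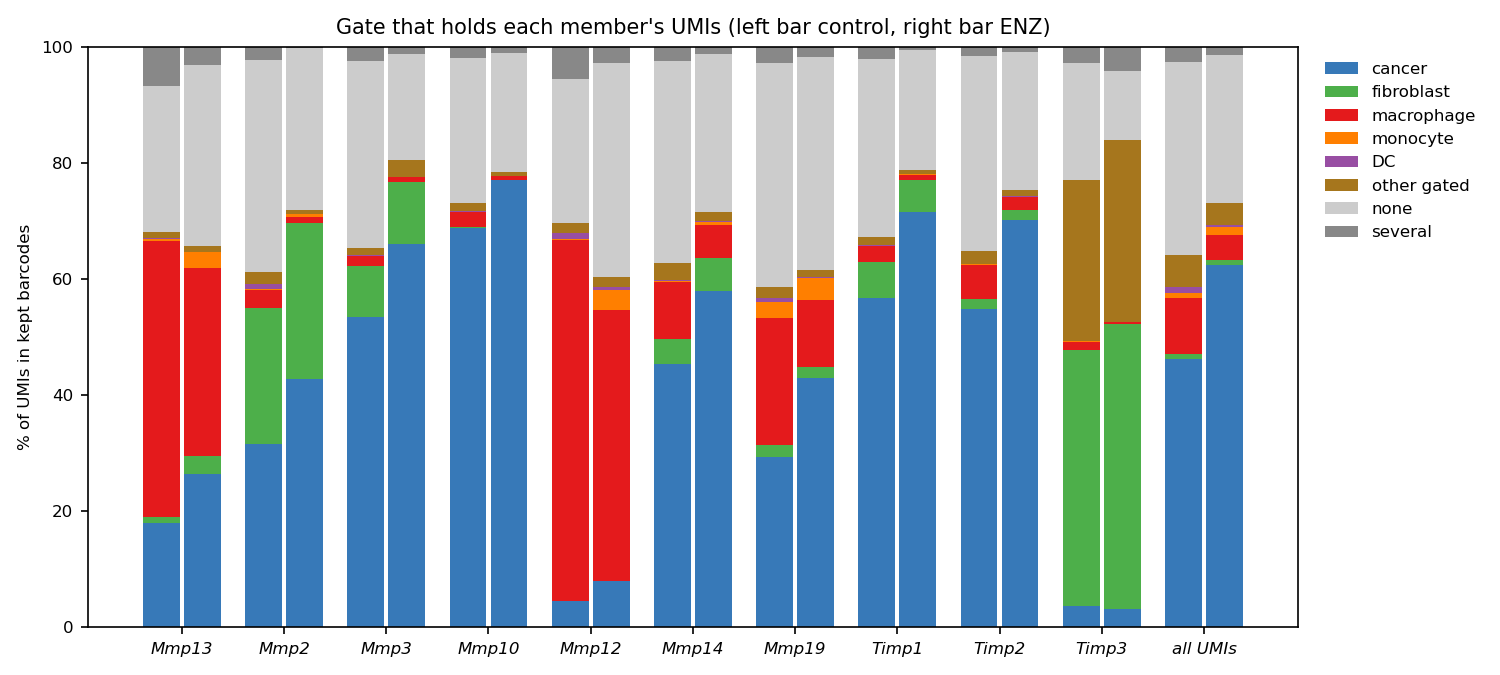
Percentage of each member's UMIs found in each gate (left bar control, right bar ENZ), with the division of all UMIs at the right. Macrophages hold 62.1% and 46.6% of Mmp12 and 47.5% and 32.6% of Mmp13 against 9.77% and 4.29% of all UMIs, and cancer cells hold most of the Mmp3 and Mmp10 UMIs.

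The genes most like each member were found from their levels over 20 profiles (10 gated cell types in 2 libraries), among 7362 genes with at least 50 CPM somewhere. These are Pearson r of log2(CPM + 10), and the profiles of a library share its depth and free RNA. Mmp12 was most like Mrc1 (0.912), although within macrophages Mrc1 was lower in the cells with Mmp12. Mmp14 was most like Emilin1 (0.964), Mmp2 like Gas1 (0.977), Mmp3 like Asap3 (0.970), Mmp13 like Ccl8 (0.880) and Mmp19 like Vcan (0.916). Among the inhibitors, Timp1 was most like Efemp2 (0.987), Timp2 like Csf1 and Fam162a (both 0.928) and Timp3 like Sgce and Zfp521 (both 0.996). Mmp10 did not reach 50 CPM in any gate and was not placed.

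Beyond the members, 55 genes of the same pathway were listed, of which 54 were present, and 147 of the 270 pairs with a cell type had a mean of at least 10 CPM. Of these 17 were at least 1.5-fold higher and 15 lower in the ENZ library, and 115 were within. Over all genes of these gates 9.22% of 40550 pairs were higher and 6.55% lower, and nothing particular to the list is read from its counts or from those of the smaller lists. Of other MMPs 7 pairs were counted and 2 were higher, Mmp8 in macrophages (16.2 and 25.1 CPM) and Mmp25 in DC (19.5 and 33.6 CPM). Mmp9, gelatinase B, was at 95.7 and 139 CPM in macrophages and at 294 and 263 CPM in neutrophils. Mmp8, the neutrophil collagenase, was at 81.6 and 159 CPM in neutrophils and at 57.9 and 75.3 CPM in monocytes, and Mmp23 was at 164 and 142 CPM in fibroblasts. Other inhibitors gave 2 counted pairs, of which A2m, a protease-trapping plasma protein, was higher in fibroblasts (13.9 and 38.1 CPM).

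In the plasminogen and precursor activation list, 31 pairs were counted, 4 higher and 5 lower. Plau in fibroblasts and monocytes and Plat in monocytes were among the higher pairs, and Plaur in fibroblasts and DC and Plat in macrophages and DC among the lower. Without the barcode rich in fibroblast markers, the Plat ratio in DC went from 0.181 to 0.398 [0.120 to 1.04]. Plat, tissue plasminogen activator, was at 209 and 154 CPM in cancer cells, and Plaur, the urokinase receptor, at 94.8 and 54.0 CPM in fibroblasts and at 353 and 268 CPM in macrophages. The clearance and binding list gave 1 higher (Mrc2) and 1 lower (Lrp1) of 14 pairs, both in DC (Lrp1 at 0.476, and at 0.613 [0.337 to 1.06] without the barcode rich in fibroblast markers), and Cd44, a hyaluronan receptor, was within 1.5-fold in each of the 5 cell types (354 and 431 CPM in cancer cells). Sheddases gave 2 higher (Adam8 in DC and Adam17 in fibroblasts) and 2 lower (Adamts1 and Adam19 in macrophages) of 32 pairs, with Adam10 at 79.7 and 96.6 CPM in cancer cells.

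Among the substrates, 5 of 26 pairs were higher and 4 lower. The higher ones were Col4a1 in fibroblasts, monocytes and DC, Col1a1 in monocytes and Fn1 in macrophages. Fn1, fibronectin, was at 373 and 695 CPM in macrophages, a ratio of 1.86 [1.79 to 1.94], and Col4a1, a basement membrane collagen, at 270 and 416 CPM in fibroblasts, a ratio of 1.54. All 4 lower pairs (Fn1, Sparc, Col1a1 and Col3a1) were in DC, and most of the control UMIs of each came from the barcode rich in fibroblast markers (219 of 311 for Fn1, 295 of 373 for Sparc, 228 of 245 for Col1a1 and 437 of 473 for Col3a1). Without it Fn1 was still lower, at 60.9 and 9.17 CPM (0.151 [0.0539 to 0.340]), but Sparc (0.918), Col1a1 (2.04 [0.947 to 4.34]) and Col3a1 (1.15) were not. The AP-1 subunits had a ratio under 1 in 27 of 35 pairs, the same 7 genes over 5 gates, beside 43.9% of pairs of all genes. Of the 35, 3 passed the limit downward (Fos and Jun in cancer cells, Fosl1 in fibroblasts) and 2 upward (Fosl1 in monocytes and DC). In cancer cells Fos was at 813 and 436 CPM (0.537 [0.530 to 0.544]) and Jun at 931 and 603 CPM (0.647 [0.640 to 0.654]), while Fosl1 was at 97.5 and 102 CPM. In macrophages Fos was at 418 and 397 CPM and Jun at 437 and 328 CPM.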

How the data were processed

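The 2 libraries of RM-1 tumors were used, 1 per condition. The authors deposited UMI counts per gene and barcode, with all barcodes and no normalization. The submitters' processing notes name mm10 and Cell Ranger 2.1.1, the file headers Cell Ranger 7.2.0, and the labels a 3' v2 kit. Annotation release and intron counting are not given in the sources used here. The libraries hold 170830346 and 162030149 UMIs over 2438568 and 2239744 barcodes. Of barcodes with at least 1000 UMIs (12348 and 10354), those with over 20% mitochondrial UMIs were dropped. A gate needed at least 3 UMIs and 3 per 10000 of its markers (5 and 5 for C1q, 20 and 100 for neutrophils, and for DC also 20 and 50 of MHC class II genes), with at most 1 Ptprc UMI for cancer cells, fibroblasts and endothelial cells. No doublet caller was run and barcodes that passed 2 gates or more were dropped. CPM, intervals and ratios were computed with numpy 2.4.6 and scipy 1.17.1 and checked on simulated data. Genes with under 10 CPM on average were not counted. Macrophages were split at 3 Mmp12 UMIs; named pathway genes had at least 50 CPM, or passed the fold limit and were named after their values were seen, and genes tied to Mmp12 at least 50 UMIs in the first set. Members and lists were chosen with earlier results of these data known. Some listed genes are not reported here.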

Additional observations from a re-analysis of the deposited data

Results flagged for a closer look

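Mmp12 and Mmp14 lay past 1.5-fold in opposite directions in different cell types. Mmp12 had a log2 ratio of 1.83 in monocytes and -0.83 in DC, and Mmp14 of 0.82 in macrophages, 1.23 in monocytes and -0.99 in DC. The DC values turned direction under other settings, to 0.39 for Mmp12 with gate limits halved and to 0.24 for Mmp14 without barcodes with 10 or more collagen UMIs. With 1 library per condition the difference between cell types was not tested.

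In gates outside the 5 cell types, 5 values were at least 1.5-fold higher in the ENZ library with an interval of the ratio above 1. Mmp3 was at 107 CPM in ENZ endothelial cells and 5.73 CPM in control ones, but 36 of the 54 UMIs came from 1 barcode with 733 UMIs of fibroblast markers. Timp1 was at 227 CPM against 124 CPM in the same gate, where the fibroblast markers summed to 2093 and 688 CPM, and mast cell markers to 0 and 1750 CPM, in the ENZ and control libraries. In neutrophils Mmp14 was at 33.9 CPM against 15.6 CPM (29 and 35 UMIs), Mmp13 at 16.4 CPM against 5.35 CPM (14 and 12 UMIs) and Mmp19 at 18.7 CPM against 7.58 CPM (16 and 17 UMIs), while mast cell markers summed to 2.34 and 246 CPM in the ENZ and control libraries, 0 and 3 of 3 of them at 10 CPM or more. Further ratios past the limit were Timp1 in neutrophils (1.53 [0.886 to 2.60]) and Mmp14 and Mmp19 in B cells (1.55 each, on 1 UMI per library), and downward Mmp12 in T cells (0.337 [0.205 to 0.541]) and neutrophils (0.667 [0.342 to 1.22]) and Timp1 in T cells (0.539 [0.371 to 0.779]) and NK cells (0.602 [0.443 to 0.807]). For Timp1 in NK cells, 33 of the 57 ENZ UMIs lay in 1 barcode, and mast cell markers summed to 297 CPM in control and 0.814 CPM in ENZ NK cells. The part of other cells' RNA in the values of all these gates was not tested.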

How the results depend on the processing

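No paired analysis was possible because vehicle and enzalutamide have 1 library apiece, and no replicate was there to leave out. The pairs at least 1.5-fold apart numbered 5 higher and 6 lower, and between 5 and 7 and between 4 and 7 under most settings. They were 3 lower with gate limits doubled, 1 higher and 1 lower when a mean of 50 CPM was asked for, and 3 higher and 2 lower at a 2-fold limit. The Mmp12 log2 ratio in macrophages, -0.45, was -0.31 with gate limits halved, -0.54 with median-of-ratios scaling and -0.69 without macrophages holding 3 or more UMIs of neutrophil, T and NK gate genes, a setting chosen after seeing the data, and was below 0 in each. The thinned Mmp12 shares of 20.8% and 16.1% were 47.8% and 33.9% without thinning and 30.3% and 21.2% after thinning to 2000 UMIs. Direction turned for Mmp12 in DC (0.23 with gate limits doubled, 0.39 halved), for Mmp13 in fibroblasts (-0.22 with gate limits halved, -0.05 without the top 3% of barcodes by UMIs) and for Mmp14 in DC (0.24 without barcodes with 10 or more collagen UMIs, also chosen after seeing the data). Over the 11 pairs past the limit, higher ones stayed past it in 57 of 60 recomputed values and lower ones in 65 of 73. Mmp14 in macrophages ranged from 0.74 to 0.88 and Mmp3 in cancer cells from -0.78 to -0.66. The cause of these shifts was not tested. Mmp19 in DC rested on 39 and 5 UMIs, which limits the precision of its ratio.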
